A study of Mus musculus with 36 samples.

Results

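Nell2, Lbh, Dynlrb2, Syde1 and Scamp4 are 5 genes chosen by their low signal in the hippocampus of mice given the histone deacetylase (HDAC) inhibitor SAHA. They were taken from 30869 gene symbols on Illumina MouseWG-6 BeadChips, where 9 of 45281 probes carry one of their symbols: 4 for Nell2, 2 for Lbh and 1 for each of the other genes. Adult male C57BL/6 mice aged 11 weeks received 10 daily intraperitoneal injections of vehicle (saline, PEG-400 and DMSO at 7.5 mL/kg), Cpd-60 (45 mg/kg at 7.5 mL/kg), SAHA (25 mg/kg at 5 mL/kg) or CI-994 (10 mg/kg at 5 mL/kg), and brains were taken 1 hour after the last injection. The hippocampus (HIP), the nucleus accumbens (NAc) and the prefrontal cortex (PFC) were dissected from 6 mice per treatment, and RNA of 2 mice was pooled, so that each of the 12 groups held 3 pools and the series 36 arrays. Vehicle was given at the larger injection volume, SAHA and CI-994 at the smaller one, and the pools hide the spread between single mice. In the descriptions of the arrays, though not in their titles, the second Cpd-60 pool of every region carries the mouse numbers of the first.

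HDACs remove acetyl groups from histones, and their inhibitors raise histone acetylation and change transcription. Nell2 encodes a secreted glycoprotein made mainly by neurons, which acts as a ligand of the axon guidance receptor Robo3. Lbh (limb bud and heart) encodes a small nuclear protein that acts as a transcriptional cofactor and is a target of Wnt signaling. Dynlrb2 is a light chain of the dynein motor, found mainly in ciliated cells. Syde1 is a GTPase-activating protein (GAP) with a role at synapses, and Scamp4 is a secretory carrier membrane protein of the vesicle trafficking route.

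The sequence just before each gene's start is shown because the genes were grouped only by their shared signal. On GRCm38.p6, Nell2 lies at chr15:95219440-95528796, and RefSeq promoter sequence was matched for 4 of the 5 genes. The 250 bases upstream of Lbh (chr17:72918055-72918304, plus strand), Dynlrb2 (chr8:116504765-116505014, plus strand), Syde1 (chr10:78591965-78592214, minus strand) and Scamp4 (chr10:80602632-80602881, plus strand) are printed 5′ to 3′, with capitals marking the GC box GGGCGG or its reverse complement CCGCCC.
Lbh: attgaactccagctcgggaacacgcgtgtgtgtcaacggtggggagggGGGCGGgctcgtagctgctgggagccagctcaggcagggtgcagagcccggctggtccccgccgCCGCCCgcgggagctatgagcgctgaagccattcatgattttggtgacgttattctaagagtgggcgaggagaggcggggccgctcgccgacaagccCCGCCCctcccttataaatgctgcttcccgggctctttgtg
Dynlrb2: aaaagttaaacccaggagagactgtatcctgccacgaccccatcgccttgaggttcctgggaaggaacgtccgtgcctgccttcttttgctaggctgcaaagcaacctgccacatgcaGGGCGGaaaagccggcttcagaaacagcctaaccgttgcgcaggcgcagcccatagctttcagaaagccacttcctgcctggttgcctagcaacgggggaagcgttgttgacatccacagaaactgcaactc
Syde1: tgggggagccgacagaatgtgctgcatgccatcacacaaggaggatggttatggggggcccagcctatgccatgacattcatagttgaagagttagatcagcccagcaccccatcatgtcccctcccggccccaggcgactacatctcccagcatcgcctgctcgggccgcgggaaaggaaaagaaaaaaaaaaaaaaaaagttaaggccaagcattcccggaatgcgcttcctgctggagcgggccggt
Scamp4: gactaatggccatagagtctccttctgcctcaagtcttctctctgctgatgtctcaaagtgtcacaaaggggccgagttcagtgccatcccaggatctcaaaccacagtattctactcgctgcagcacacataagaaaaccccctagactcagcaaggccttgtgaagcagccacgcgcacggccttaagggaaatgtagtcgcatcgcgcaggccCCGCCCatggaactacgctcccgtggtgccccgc
The Lbh window held 3 matches, Dynlrb2 and Scamp4 held 1 each and Syde1 held 0. Of 32851 promoter windows of this length, 32.7% held at least 1 match on either strand. The Lbh window also held 21 CpG dinucleotides, against 11 or 12 in the other windows and a median of 6 over all windows.

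All values are log2 of the quantile-normalized intensity, and 1 unit is a doubling. Every member probe passed the detection filter in every region, and the faintest, Dynlrb2, had a detection p of at most 0.01 on 34 of 36 arrays. The tissue labels were checked with marker genes in the vehicle arrays: 5 of 5 striatal markers were highest in NAc, 4 of 4 cortical markers in PFC and 11 of 15 hippocampal field markers in HIP. Array brightness, taken as the 95th percentile of raw intensity, ran from 518.9 to 907.5 in PFC, from 349.9 to 1079.7 in NAc and from 437.7 to 850.1 in HIP.

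In HIP, the values that chose these genes placed the 3 SAHA pools low for every member. The contrast is therefore given as a description with no test. Of the 9 member probes, 7 had all 3 SAHA pools below all 3 vehicle pools, where 10.8% of the 23275 probes tested in HIP had this order, but nothing is read from a count that the choice of genes fixed.

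The brightest Nell2 probe (ILMN_1241551) read 9.66, 9.31 and 8.57 in the 3 vehicle pools of HIP and 8.79, 8.35 and 8.17 in the SAHA pools. Its groups overlapped, since vehicle pool 3 lay below SAHA pool 1. Mean levels were 9.18 ± 0.56 (SD, n = 3) with vehicle and 8.44 ± 0.32 with SAHA, a difference of -0.74 ± 0.52 (SE) or 1.67-fold.

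A second Nell2 probe (ILMN_2711366) read 9.73, 9.30 and 8.32 with vehicle and 8.22, 7.89 and 7.78 with SAHA. These groups did not overlap, and the difference was -1.15. The other Nell2 probes differed by -0.25 (ILMN_2704570, groups overlapping) and -0.42 (ILMN_2869715, groups apart).

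Lbh is the Wnt target. Its brighter probe (ILMN_2816180) read 9.37, 9.33 and 8.65 in the vehicle pools and 8.36, 8.10 and 7.96 in the SAHA pools, so that every SAHA pool lay lower. The difference was -0.98 ± 0.29 (SE), or 1.97-fold, and the fainter Lbh probe (ILMN_1233545) differed by -0.45.

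For Dynlrb2, the dynein light chain, HIP vehicle pools read 7.66, 7.63 and 7.44 and SAHA pools 7.17, 7.11 and 7.03. Syde1, the GAP, read 7.31, 7.36 and 7.28 with vehicle against 6.98, 6.75 and 7.13 with SAHA. Scamp4, the vesicle membrane protein, read 8.83, 8.97 and 8.81 against 8.53, 8.52 and 8.33. None of these 3 genes had overlapping groups. The differences were -0.48 ± 0.11 for Dynlrb2, -0.37 ± 0.09 for Syde1 and -0.41 ± 0.12 for Scamp4 (SE).

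**Figure D1:**
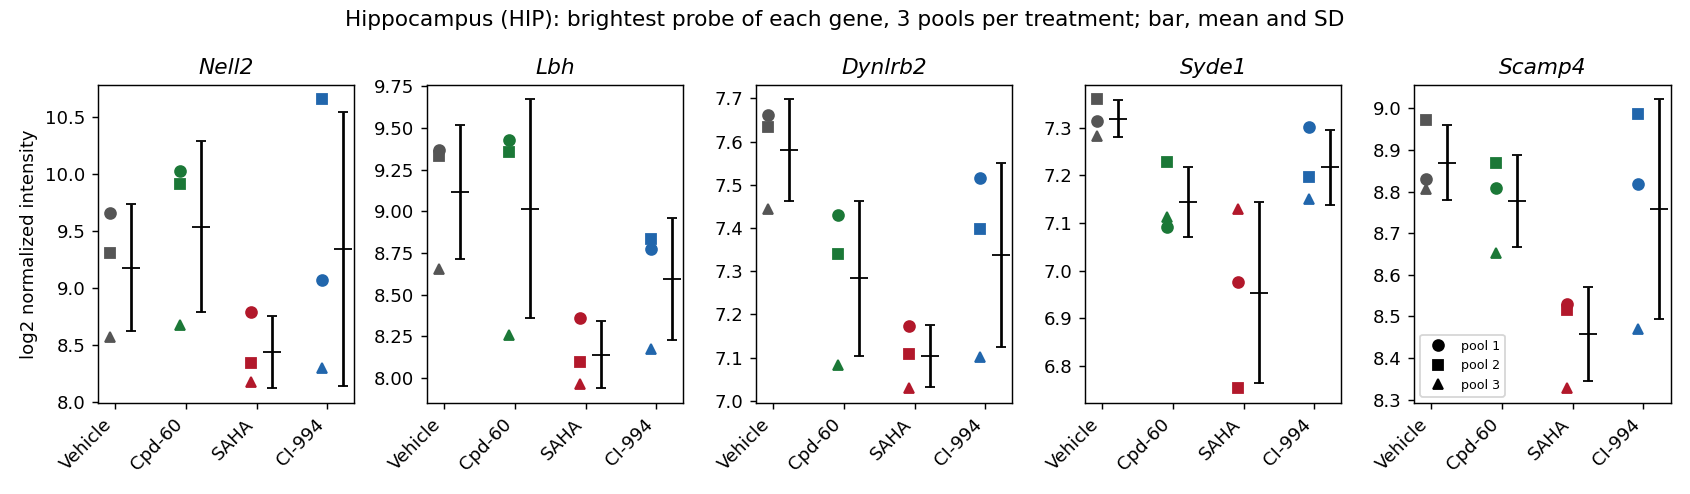
Log2 normalized intensity of the brightest probe of each gene in HIP (y axis) for the 3 pools of each treatment (symbols), with mean and SD beside them. SAHA pools of Lbh (7.96 to 8.36) lie below all vehicle pools, with CI-994 pool 3 (8.17) and Cpd-60 pool 3 (8.26) in the same range, while Nell2 pools of vehicle and SAHA overlap and CI-994 pools of Nell2 spread from 8.30 to 10.66.

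Cpd-60 and CI-994 share the vehicle arrays with that contrast, so their HIP values are also given without a test. Nell2 (ILMN_1241551) read 10.03, 9.92 and 8.67 with Cpd-60 and 9.07, 10.66 and 8.30 with CI-994. The means differed from vehicle by 0.36 ± 0.52 and 0.17 ± 0.52 (SE), within the spread of the pools. Lbh (ILMN_2816180) read 9.43, 9.36 and 8.26 with Cpd-60 and 8.77, 8.84 and 8.17 with CI-994, differences of -0.10 ± 0.29 and -0.52 ± 0.29. The fainter Lbh probe (ILMN_1233545) went the other way, by 0.16 ± 0.29 with Cpd-60 and 0.23 ± 0.29 with CI-994.

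Dynlrb2 and Syde1 lay below vehicle in all 3 Cpd-60 pools. Dynlrb2 read 7.43, 7.34 and 7.08 with Cpd-60, a difference of -0.30 ± 0.11, and Syde1 read 7.09, 7.23 and 7.11, a difference of -0.17 ± 0.09. These were 2 of the 9 member probes, against 6.43% of tested probes with this order, and they reuse the vehicle arrays on which the genes were chosen. With CI-994, 0 member probes were apart from vehicle in HIP, where the background was 4.98% of probes above and 4.6% below.

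The tested HIP comparison, Cpd-60 against CI-994, compared arrays that had no part in the choice of genes. Its error was estimated over all HIP arrays, including the vehicle and SAHA arrays that chose the genes. At an adjusted p of 0.05, limma called 0 of the 9 member probes and 0% of 23275 probes, and none reached 0.05 before adjustment (0 of 9, against 8.17% of all tested probes). A one-way test across treatments with Tukey's HSD, the methods' test, also called 0. Lbh (ILMN_2816180) had the smallest adjusted p, 0.757, with a difference of 0.42 ± 0.29 (SE).

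Some SAHA arrays of HIP were dim. In HIP, the 95th percentile of raw intensity was 665.2, 437.7 and 452 in the SAHA arrays, against 593.6 to 850.1 in the other 9. SAHA arrays 2 and 3 were thus the dimmest of the region, and SAHA array 1 was within the brightness range of the other treatments. A detection p of at most 0.01 was reached by 34.3% of probes on SAHA array 1 and by 32.1% and 32.3% on arrays 2 and 3. On the other 9 arrays this share ran from 37.3% to 39.7%, so every SAHA array lay below them. With brightness as a covariate, the SAHA difference of Nell2 (ILMN_1241551) was -0.03 ± 0.73 (SE) and that of Lbh (ILMN_2816180) -0.74 ± 0.44. Dynlrb2 stood at -0.49 ± 0.17, Syde1 at -0.35 ± 0.13 and Scamp4 at -0.35 ± 0.17. With SAHA arrays 2 and 3 left out, the fitted values for the remaining SAHA array were -0.39 for Nell2, -0.757 for Lbh, -0.41 for Dynlrb2, -0.34 for Syde1 and -0.34 for Scamp4. With each array divided by its own 95th percentile, the members stood at -0.68 (Nell2), -0.89 (Lbh), -0.15 (Dynlrb2), 0.03 (Syde1) and -0.35 (Scamp4). Syde1 thus changed sign. The median of all tested HIP probes in the same contrast was then 0.38. Relative to that median, the members stood at -1.06, -1.27, -0.53, -0.35 and -0.73, in the same order of genes. Whether bright and faint probes shared that shift was not tested.

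The values of Nell2 and Lbh differed with the place of an array on its BeadChip. Each region filled 2 BeadChips of 6 positions, in the same order of pools in every region. Counted from the first position of the first BeadChip, places 1 to 4 held Cpd-60 1 and 2 and vehicle 1 and 2, places 5 to 8 held CI-994 1, SAHA 1, Cpd-60 3 and vehicle 3, and places 9 to 12 held CI-994 2 and 3 and SAHA 2 and 3. The bounds of these sets were chosen after the values of Nell2 were seen. Vehicle and SAHA shared only the middle set, so treatment and place are largely confounded in the other sets.

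In PFC, Nell2 (ILMN_1241551) ranged from 9.37 to 9.92 at places 1 to 4, from 8.77 to 9.06 at places 5 to 8 and from 9.52 to 10.23 at places 9 to 12. The middle set lay below both others, and it held 1 array of each treatment. As the bounds were drawn from Nell2 values, this separation is only described. In NAc the order was turned: the middle set ranged from 8.67 to 9.07, above 8.11 to 8.48 and 8.02 to 8.51. In HIP, the first set ranged from 9.31 to 10.03 and the middle set from 8.57 to 9.07, and the last set from 8.17 to 8.35 apart from the second CI-994 pool at 10.66.

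Lbh (ILMN_2816180) followed a course similar to that of Nell2, apart from the last set in NAc. In PFC its middle set ranged from 8.52 to 9.01, below 9.18 to 9.35 and 9.12 to 9.65. In NAc the middle set ranged from 9.04 to 9.78, above 8.34 to 8.87, and the last set spread from 8.22 to 9.59. In HIP the first set held to 9.33 to 9.43, with the middle set at 8.26 to 8.77 and the last at 7.96 to 8.84. The fainter Lbh probe correlated with the brighter one at r = 0.826 in PFC, 0.886 in NAc and 0.619 over the 9 HIP arrays without SAHA, and the 4 Nell2 probes correlated with each other at r of 0.863 to 0.955, 0.666 to 0.899 and 0.867 to 0.981 over the same arrays. Not every probe shared the course: in NAc, Nell2 ILMN_2704570 ranged from 7.26 to 7.83 in the middle set and from 7.26 to 7.56 in the first.

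Within the middle set of HIP, which holds 1 vehicle and 1 SAHA array, SAHA minus vehicle was 0.22 for Nell2 (ILMN_1241551), -0.29 for Lbh (ILMN_2816180), -0.27 for Dynlrb2, -0.31 for Syde1 and -0.28 for Scamp4. With the 3 sets as a block in the fit of all 12 HIP arrays, the differences were 0.04 ± 0.63 for Nell2, -0.17 ± 0.20 for Lbh, -0.19 ± 0.11 for Dynlrb2, -0.28 ± 0.13 for Syde1 and -0.25 ± 0.16 for Scamp4 (SE). Within the first BeadChip the corresponding values were -0.69, -0.99, -0.47, -0.36 and -0.37, and within the second -0.31, -0.62, -0.38, -0.34 and -0.39, in the same order of genes. With the sets of places, whose bounds were drawn from Nell2 values, Nell2 changed sign, and Syde1 moved by less than 1 SD of its pools. The part of brightness and of place in the SAHA difference was not tested, and with 1 shared set they cannot be told apart from treatment.

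**Figure D2:**
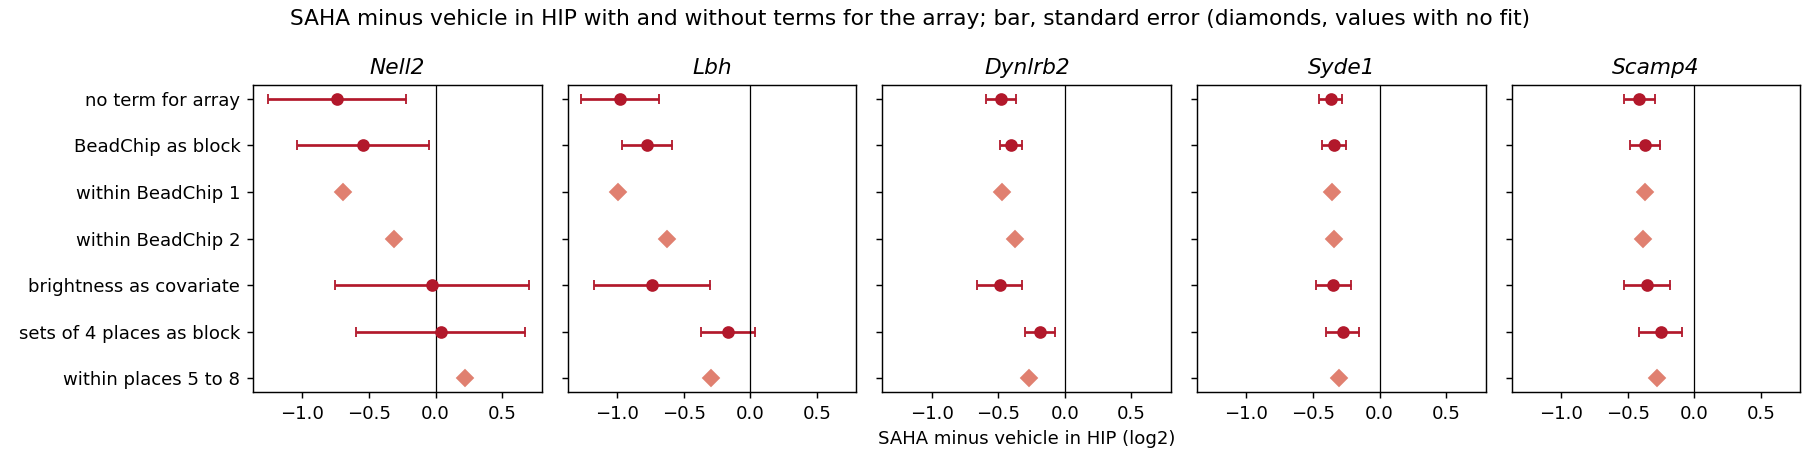
SAHA minus vehicle in HIP (x axis, log2) for the brightest probe of each gene, fitted without and with terms for BeadChip, brightness or array place (rows); bars are standard errors and diamonds are values without a fit. Nell2 moves from -0.74 to 0.04 and Lbh from -0.98 to -0.17 with sets of 4 places as a block, while Syde1 moves from -0.37 to -0.28. The bounds of the sets were chosen after the values of Nell2 were seen.

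**Figure D3:**
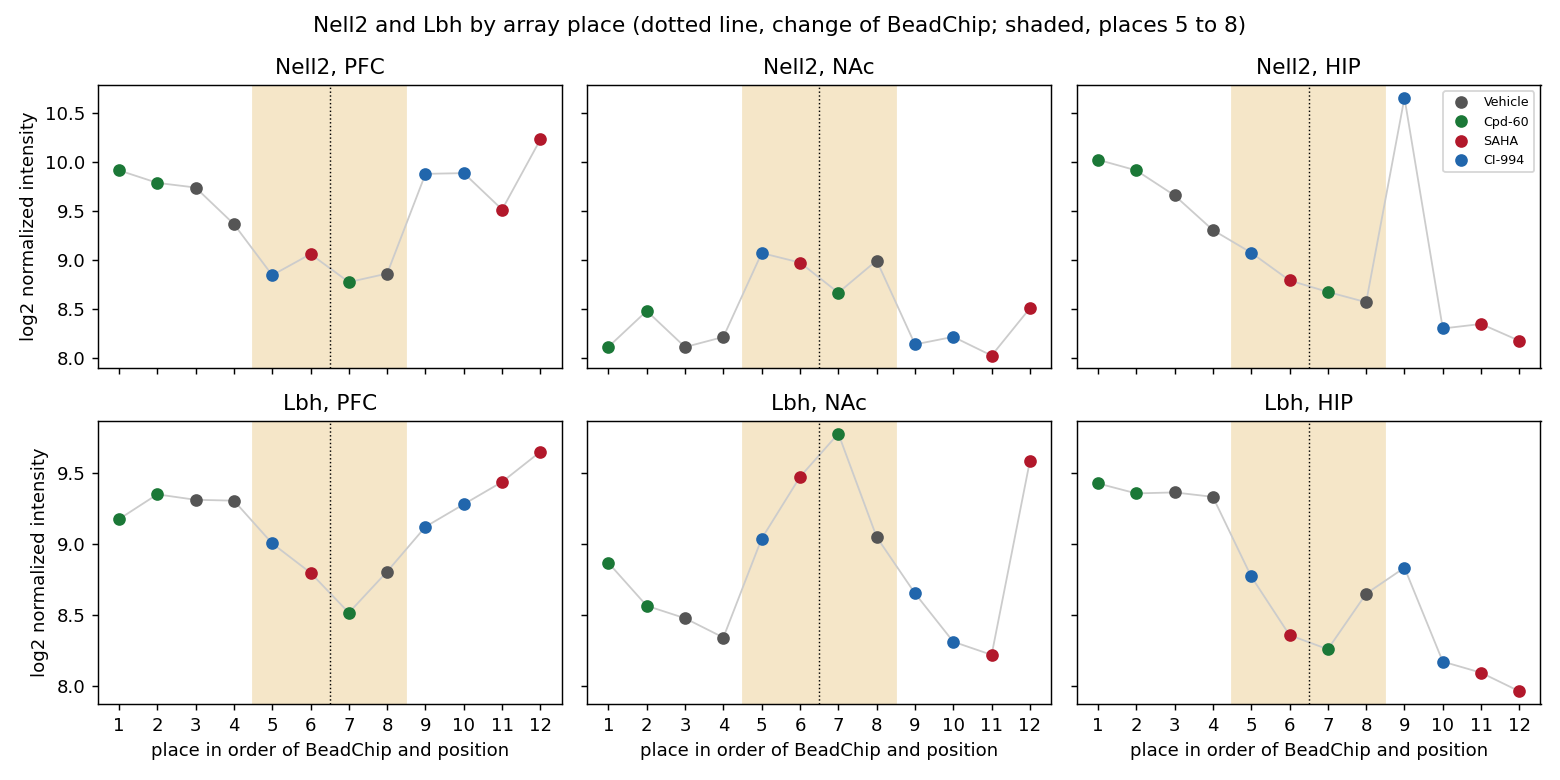
Nell2 (ILMN_1241551, top) and Lbh (ILMN_2816180, bottom), log2 normalized intensity (y axis) against the array's place in the order of BeadChip and position (x axis), by region and treatment. Places 5 to 8 (shaded) hold 1 array of each treatment and lie low in PFC and high in NAc, where SAHA 3 of Lbh (9.59, last place) is also high.

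Spread between pools set these genes apart in degree. The SD within groups, pooled over the 12 groups, was 0.61 for Nell2 (ILMN_1241551) and 0.46 for Lbh (ILMN_2816180), larger than that of 99.8% and 99% of the 19447 probes tested in all regions. The median over all these probes was 0.12. The 12 groups include the vehicle and SAHA groups of HIP, which chose the genes, so these ranks are not independent of that choice. Dynlrb2 (0.14), Scamp4 (0.13) and Syde1 (0.09) had a spread near or under the median. Dynlrb2 and Syde1 were also the faintest member probes, with mean levels of 7.13 and 7.15, and no background was subtracted from these values. With background correction (neqc), their SAHA differences in HIP were larger, at -0.91 and -0.84.

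In PFC, where the genes were not chosen, no drug moved a member past the test. For each of Cpd-60, SAHA and CI-994 against vehicle, limma called 0 of 9 member probes and 0% of 22156 tested probes at an adjusted p of 0.05. At an unadjusted p under 0.05, 1 member probe passed with Cpd-60, 1 with SAHA and 0 with CI-994 (5.19%, 2.25% and 3.98% of all tested probes), and the methods' test called 0 in each. Nell2 (ILMN_1241551) read 9.74, 9.37 and 8.86 with vehicle and 9.06, 9.52 and 10.23 with SAHA, a difference of 0.28 ± 0.37 (SE; adjusted p = 0.99986). All groups of Nell2 in PFC overlapped.

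Lbh (ILMN_2816180) in PFC read 9.31, 9.31 and 8.81 with vehicle and 8.80, 9.44 and 9.65 with SAHA, a difference of 0.15 ± 0.23. Syde1 read 7.21, 7.22 and 7.08 with vehicle and 7.24, 7.46 and 7.38 with Cpd-60, all 3 pools higher, with a difference of 0.19 ± 0.08 and an adjusted p of 0.923. Scamp4 read 8.47, 8.70 and 8.66 with vehicle and 8.73, 8.70 and 8.71 with CI-994, a difference of 0.11 ± 0.08. These were the only member probes whose groups did not overlap in PFC: 1 of 9 above vehicle with Cpd-60 (background 4.87% of probes) and 1 of 9 with CI-994 (5.76%), while 0 of 9 lay above with SAHA (4.41%). No member lay below vehicle in PFC, where the background was 4.81% with Cpd-60, 4.27% with SAHA and 4.94% with CI-994.

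In NAc, limma likewise called 0 of 9 member probes and 0% of 23242 probes for each drug, and 0 member probes had an unadjusted p under 0.05 (4.77% of all tested probes with Cpd-60, 2.05% with SAHA and 1.99% with CI-994). Lbh (ILMN_2816180) read 8.48, 8.34 and 9.05 with vehicle, 9.48, 8.22 and 9.59 with SAHA and 8.87, 8.57 and 9.78 with Cpd-60. Its differences of 0.47 ± 0.40 with SAHA and 0.45 ± 0.40 with Cpd-60 lay within the spread of overlapping pools. Nell2 (ILMN_1241551) read 8.11, 8.21 and 8.99 with vehicle and 8.97, 8.02 and 8.51 with SAHA, a difference of 0.06 ± 0.32.

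Dynlrb2 was the only member apart from vehicle in NAc. It read 7.06, 7.09 and 7.17 with vehicle and 7.42, 7.20 and 7.40 with SAHA, a difference of 0.23 ± 0.11 (adjusted p = 0.999794), the opposite direction to HIP. With SAHA, 1 of 9 member probes thus lay above vehicle (background 3.37%) and 0 below (3.73%). With Cpd-60 both counts were 0 (4.26% and 5.12%), as with CI-994 (3.61% and 4%). With the sets of 4 places as a block, 1 member probe, Nell2 ILMN_2704570, passed the threshold for SAHA (0.54 ± 0.13, adjusted p = 0.024) and for CI-994 (0.54 ± 0.13, adjusted p = 0.0235), in a fit chosen after seeing the data, with set bounds drawn from Nell2 values. That fit called 8.64% of all 23242 probes with SAHA and 8.96% with CI-994, against 1 of 9 member probes each.

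The drug effect itself was not shown to differ between NAc and PFC for any member probe. The test of that difference called 0 of 9 probes and 0% of 19447 for Cpd-60, SAHA and CI-994, with 0 member probes at an unadjusted p under 0.05. For Nell2 (ILMN_1241551) the SAHA effect in NAc minus that in PFC was -0.22 ± 0.66 (SE), and for Lbh (ILMN_2816180) it was 0.32 ± 0.49.

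**Figure D4:**
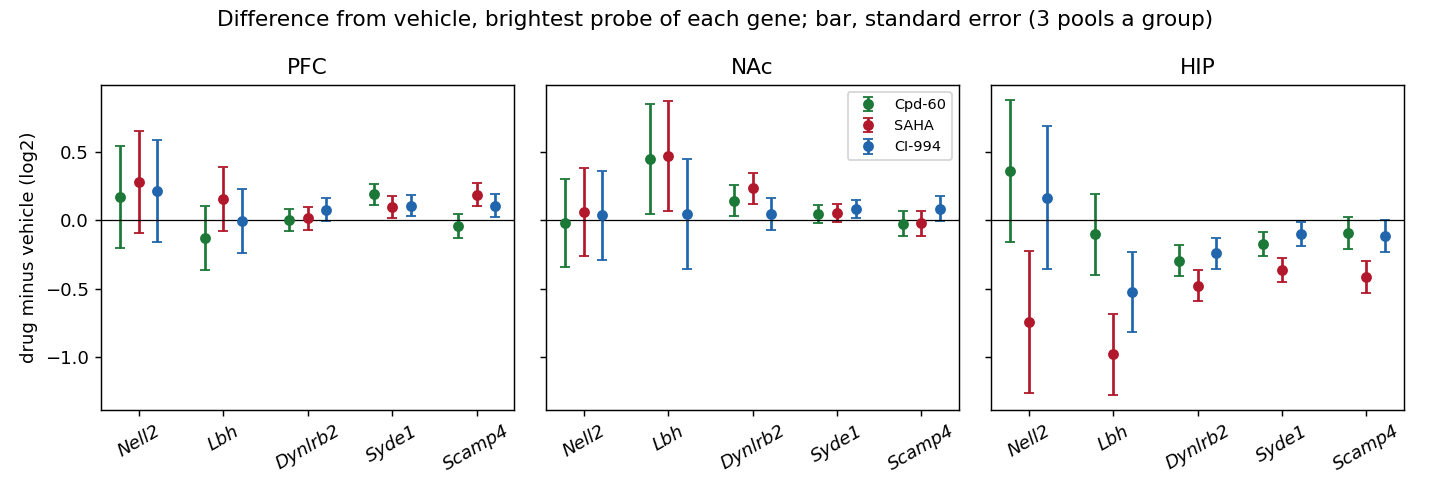
Difference of each drug from vehicle (y axis, log2) for the brightest probe of each gene in PFC, NAc and HIP; bars are standard errors, 3 pools a group. SAHA values in HIP, which chose the genes, run from -0.98 to -0.37, and PFC and NAc values run from -0.13 to 0.47.

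Brightness was set against the members in PFC and NAc. Across the 12 NAc arrays, Nell2 (ILMN_1241551) correlated with log2 brightness at Pearson's r = 0.726 (permutation p = 0.0078) and Spearman's rho = 0.762 (permutation p = 0.00549), and r was 0.768 without the 2 arrays farthest from the median brightness. Adjusted over 10 relations (5 genes in 2 regions), the p-values were 0.073 and 0.0549. Lbh gave r = 0.633 (permutation p = 0.0275) and rho = 0.678 (permutation p = 0.0189) in NAc, with adjusted values of 0.073 and 0.0631, and r = 0.743 without those arrays. In PFC, r was 0.621 for Nell2 and 0.589 for Lbh (permutation p = 0.0292 and 0.0439, rho = 0.531 and 0.573, permutation p = 0.0803 and 0.0556). Without the 2 farthest arrays r dropped to 0.395 and 0.279, so that it depended in part on those arrays. Within single BeadChips of 6 arrays, r in NAc was 0.924 and 0.686 for Nell2 and 0.526 and 0.883 for Lbh, and in PFC 0.323 and 0.871 for Nell2 and 0.312 and 0.862 for Lbh. In NAc, Dynlrb2 (r = 0.605, permutation p = 0.0378, rho = 0.524, permutation p = 0.0841) and Scamp4 (r = 0.626, permutation p = 0.0291, rho = 0.685, permutation p = 0.0174) also had an unadjusted p under 0.05 for r, with r of 0.391 and 0.755 without the 2 farthest arrays. Syde1 in both regions and Dynlrb2 and Scamp4 in PFC had r of 0.0113 to 0.432 (permutation p from 0.162 to 0.972). None of the 10 relations passed the correction. The permutations shuffled the 12 arrays of a region freely, over treatments, BeadChips and places. In NAc the arrays at places 5 to 8 were the brightest, at 836.3 to 1079.7 against 349.9 to 827.3 at the other places. Brightness and place thus largely coincided there, and their parts were not separated. In the 9 HIP arrays other than SAHA, r was 0.287 for Nell2 and 0.121 for Lbh, as a description. It was -0.0217 for Dynlrb2, 0.123 for Syde1 and 0.107 for Scamp4.

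Levels also differed between regions for some members. Levels were tested as the mean over Cpd-60 and CI-994, whose arrays had no part in the choice of genes. The fit held all 36 arrays, with the pool of mice as a random block. Its error therefore also drew on the vehicle and SAHA arrays. Nell2 was lower in NAc. Its mean was 8.47 ± 0.52 (SD, n = 3) in NAc with CI-994 against 9.54 ± 0.60 in PFC and 9.34 ± 1.20 in HIP, and NAc minus PFC, averaged over both drugs, was -1.07 ± 0.33 (SE; ILMN_1241551, adjusted p = 0.0123). Of the 4 Nell2 probes, 3 passed in NAc against PFC and 3 in HIP against NAc, where ILMN_1241551 was higher by 0.99 ± 0.33 (adjusted p = 0.0251). ILMN_2711366 passed in neither.

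The region difference of Nell2 was uneven over array places. At places 1 to 4, the 4 arrays of each region averaged 9.70 in PFC and 8.23 in NAc, and at places 9 to 12 they averaged 9.88 and 8.22. At places 5 to 8, however, they averaged 8.89 in PFC and 8.93 in NAc. The 2 Cpd-60 or CI-994 arrays at places 5 to 8 averaged 8.87 in both HIP and NAc. Each BeadChip held 1 region, and with the BeadChip as a random block the adjusted p of ILMN_1241551 in HIP against NAc was 0.0872. Without CI-994 replicate 2, the pool with the highest Nell2 value in HIP, it was 0.212, and 0 member probes then passed in HIP against NAc. The same call was lost without Cpd-60 replicate 1 or 2, and the call of ILMN_1241551 in NAc against PFC was lost without Cpd-60 replicate 1 or CI-994 replicate 3 (adjusted p up to 0.0781). ILMN_2704570 kept its NAc against PFC call without any one pool (-0.90 ± 0.23, adjusted p = 0.00299). ILMN_2869715 lost its call in HIP against NAc without any one of 9 pools and in NAc against PFC without any one of 6.

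Dynlrb2 was lowest in PFC. HIP exceeded PFC by 0.45 ± 0.08 (SE; adjusted p = 3.85e-05) and NAc exceeded PFC by 0.34 ± 0.08 (adjusted p = 0.000913), while HIP and NAc did not differ beyond the error (0.11 ± 0.08, adjusted p = 0.337). Both calls passed the threshold without any one pool and with the BeadChip as a random block. At places 1 to 4, 5 to 8 and 9 to 12, the 2 Cpd-60 or CI-994 arrays of each set averaged 7.38, 7.30 and 7.25 in HIP and 6.88, 6.81 and 6.88 in PFC.

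Syde1 was lower in NAc than in PFC by 0.28 (-0.28 ± 0.05, adjusted p = 0.000217), in every set of places (6.98, 7.05 and 7.03 against 7.28, 7.28 and 7.24). That call was lost where each array was divided by its 95th percentile (adjusted p = 0.152). HIP minus PFC for Syde1 was -0.14 ± 0.05 (adjusted p = 0.0458), a call lost without any one of 9 of the 12 pools, among them each of the 3 vehicle pools. Lbh and Scamp4 passed in none of the 3 region comparisons.

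In HIP against PFC, 1 of 9 member probes was called higher and 1 lower, against 18.1% and 23.2% of 19447 probes. In HIP against NAc, 3 of 9 were higher and 0 lower, against 12.3% and 14.3%, and in NAc against PFC, 1 was higher and 4 lower, against 17.4% and 19.7%. In the order of the 12 group means, the ranges of neighbouring groups overlapped in 11 of 11 steps for Nell2, Lbh and Syde1, 10 of 11 for Scamp4 and 9 of 11 for Dynlrb2.

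**Figure D5:**
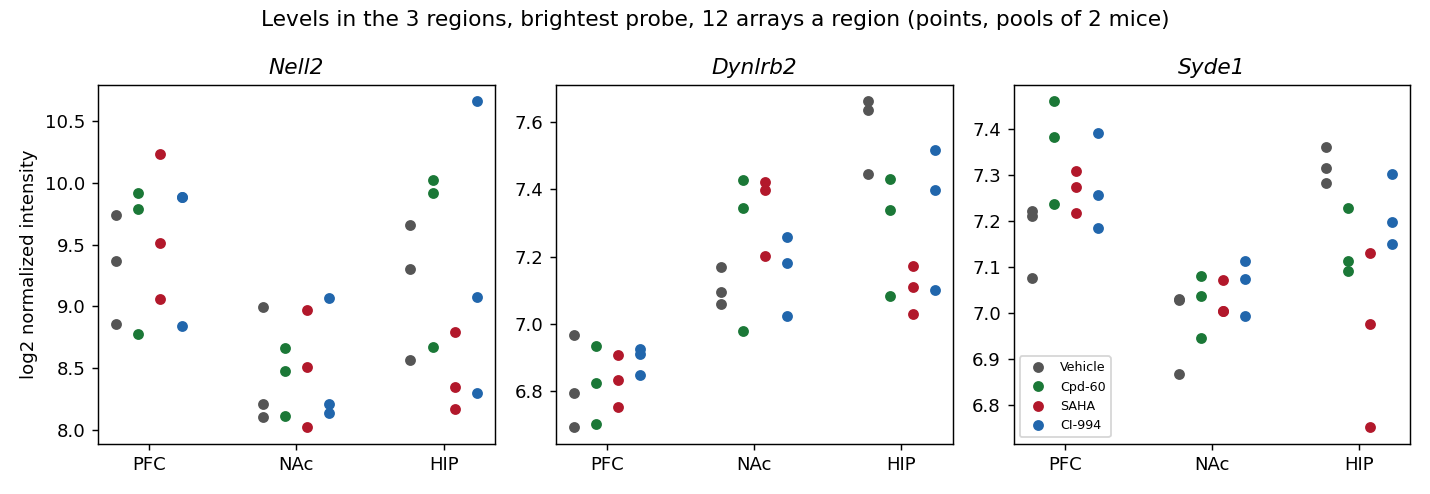
Log2 normalized intensity (y axis) of Nell2, Dynlrb2 and Syde1 in the 3 regions (x axis), 12 arrays a region, coloured by treatment. Dynlrb2 lies lowest in PFC (group means 6.82 to 6.90), and the Nell2 group means lie lower in NAc than in PFC for every treatment.

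The genes most like Nell2 and Lbh were ranked by Pearson correlation with the brightest probe, as a description over arrays that share treatment, BeadChip and place. Over the 12 HIP arrays, the closest to Nell2 were Lphn1 (r = 0.981), Aes (0.981), LOC381891 (0.98), Actl6b (0.98) and the fainter probe of Lbh (0.979), among 23271 probes. For Lbh they were Cops5 (0.977), Ubl3 (0.976), Furin (0.966), Psme3 (0.966) and Slc25a23 (0.963). Over all 36 arrays, Nell2 was closest to Epn1 (0.944), Ddef2 (0.905), Git1 (0.903), LOC100047419 (0.903) and Gal3st3 (0.899), and Lbh to Psme3 (0.906), Tpcn1 (0.896), Tpm1 (0.894), 2310007G05Rik (0.892) and Rhbdl1 (0.886). The brightest probes of Nell2 and Lbh correlated with each other at r = 0.791 over HIP and 0.653 over all arrays. Dynlrb2 correlated with Nell2 at r = 0.606 over HIP but at -0.03 over all arrays.

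Relatives of the members were read from lists of 43 genes: Robo ligands and receptors, Wnt and beta-catenin genes, dynein subunits, Syde2 with other GAP genes, and the other Scamp genes. Of these, 38 or 39 were tested in each region, and limma called 0 in either direction in every comparison given here. In HIP with SAHA, a contrast that shares its arrays with the choice of members, 8 of 38 relatives lay above vehicle in all pools (21.1%, background 8.45%) and 4 below (10.5%, background 10.8%).

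Among Robo genes in that contrast, the receptor Robo1 stood at -0.21 ± 0.10 (SE). Among Wnt genes, Ctnnb1 (beta-catenin) stood at 0.29 ± 0.12, its scaffold partners Axin1 at 0.22 ± 0.09 and Apc at 0.12 ± 0.06, and Axin2, a feedback inhibitor, at -0.24 ± 0.09. The dynein light chain Dynll1 stood at -0.26 ± 0.09. Of 9 GAP genes, 3 lay above and 1 below, and Arhgap32 stood at 0.49 ± 0.12, Arhgap1 at 0.37 ± 0.20 and Srgap3 at 0.23 ± 0.11. Of the other Scamp genes, Scamp1 and Scamp5 stood at 0.24 ± 0.14 and 0.24 ± 0.20, opposite in sign to Scamp4. The list medians were -0.08 (Robo), -0.04 (Wnt), -0.10 (dynein), 0.00 (GAP genes) and 0.24 (Scamp), against -0.01 over all probes tested.

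With the other drugs in HIP, the relatives apart from vehicle were Apc (0.14, above) and Srgap2 (-0.12, below) with Cpd-60, 1 of 38 in each direction against backgrounds of 5.78% and 6.43%, and Robo4 (-0.09) and Srgap2 (-0.10) with CI-994, 2 of 38 below (4.6%). Between Cpd-60 and CI-994 in HIP, Dynll1 (-0.22) and Scamp3 (-0.12) were lower with Cpd-60, 2 of 38 against 6.86%, with 0 higher against 5.68%. In PFC, Robo4 (0.15) and Dync1li2 (0.13) lay above vehicle with Cpd-60, Robo1 (-0.15) lay below with SAHA and Arhgap26 (-0.09) below with CI-994, 2 of 39 (background 4.87%), 1 of 39 (4.27%) and 1 of 39 (4.94%). In NAc, the Wnt effector Tcf7l2 (0.32) lay above vehicle with Cpd-60, 1 of 39 (4.26%). Its relatives Lef1 (-0.15) and Tcf7 (-0.08), with Syde2 (-0.05), lay below with SAHA, 3 of 39 or 7.69% (background 3.73%), and Apc (-0.20), Dynll2 (-0.21), Dync1li1 (-0.14) and Arhgap26 (-0.15) lay below with CI-994, 4 of 39 or 10.3% (background 4%).

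Cell type markers were read beside the HIP contrast, since fewer cells of a type and less RNA per cell cannot be told apart in dissected tissue. Of 6 oligodendrocyte markers, 4 lay below vehicle in all SAHA pools, and their mean log2 level ranged from 10.87 to 10.99 with SAHA, from 11.11 to 11.25 with vehicle and from 10.87 to 11.09 with CI-994, which was low as well. Microglial markers, with 2 of 6 below, ranged from 7.78 to 7.81 with SAHA and from 7.84 to 7.93 with vehicle. They ranged from 7.75 to 7.85 with Cpd-60 and from 7.77 to 7.95 with CI-994. Blood markers, with 1 of 3 below, ranged from 9.79 to 10.21 with SAHA and from 10.23 to 10.47 with vehicle. They ranged from 10.02 to 10.29 with Cpd-60 and from 9.79 to 9.88 with CI-994. The share of all tested probes below vehicle with SAHA was 10.8%. Ependymal markers, the ciliated cells that express dynein genes, ranged from 7.06 to 7.20 with SAHA and from 7.13 to 7.28 with vehicle, with 0 of 6 apart. Interneuron markers ranged from 10.03 to 10.16 with SAHA and from 10.08 to 10.12 with vehicle. No listed hippocampal field marker lay below vehicle in all SAHA pools. Above vehicle lay 4 of 15 (1 of dentate gyrus, 1 of CA1 and 2 of CA2 and CA3), against 8.45% of all tested probes. The part of these cell types in the members' values was not tested.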

How the data were processed

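RNA of the 36 pools was hybridized by the authors to Illumina MouseWG-6 BeadChips. The deposited table holds, per the file headers, the raw intensity of each of 45281 probes and a detection p-value, neither normalized, and the software behind the raw values is not given in the sources used here. Intensities were quantile-normalized over 36 arrays, floored at 1 and put on a log2 scale. Testing within a region was limited to probes for which some group had a detection p of 0.2 or less on each of its 3 arrays. Each region's 12 arrays were fitted in limma 3.58.1 (R 4.3.3) without covariates, and p-values were adjusted by Benjamini-Hochberg over all tested probes, with a threshold of 0.05. Region differences and the difference of drug effects were fitted over 36 arrays with the pool as a random block (duplicateCorrelation). The method was tested on simulated data with independent noise on each array. Those data held no BeadChip, place or brightness structure, so the calls under such structure were not tested. The members, their relatives and the marker lists were chosen with earlier results of these data known, and the relatives named are those whose 3 treated pools all lay beyond the comparison group, except 1 that is counted but not reported here by name. Each gene is represented by its brightest probe, on average over 36 arrays, and other probes are named by identifier. For likeness, the 5 probes of other genes with the highest correlation were taken. The number of arrays limits the precision. The p-values of the drug and region tests measure the spread between arrays, each of 1 pool of 2 mice. Differences between animals, BeadChips, places and brightness are mixed in that spread. Alternatives were normalization over the 27 arrays other than CI-994, neqc, division by the 95th percentile, other detection filters, BeadChip, brightness and pool number in the fit, the methods' test, leaving out each pool and leaving out the dim arrays. Terms for array place and the BeadChip as a random block were added after seeing the data. All 3 same-numbered pairs of pools correlated above 0.1 for vehicle with Cpd-60 in PFC (r = 0.174 to 0.575) and NAc (0.335 to 0.721) and for SAHA with CI-994 in NAc (0.365 to 0.868), and the labels do not say that a number marks a shared batch.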

Additional observations from a re-analysis of the deposited data

Results flagged for a closer look

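The 9 member probes were searched with each drug. In 2 cases every treated pool lay on one side of all vehicle pools in one region and on the other side in another. Dynlrb2 with SAHA stood at 0.2321 (log2, SAHA minus vehicle) in NAc and at -0.4766 in HIP. Syde1 with Cpd-60 stood at 0.19 (Cpd-60 minus vehicle) in PFC and at -0.1747 in HIP. Of all tested probes, 3.37% lay above vehicle with SAHA in NAc and 10.8% below in HIP. With Cpd-60, 4.87% lay above in PFC and 6.43% below in HIP. The share of probes with both orders is not given here. The difference between regions was not tested in either case, because the HIP arrays of vehicle and SAHA chose the genes.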

How the results depend on the processing

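In the HIP contrast of SAHA and vehicle, Nell2 was -0.0294 with brightness as a covariate, 0.0384 with sets of 4 places as a block and 0.2231 within the middle 4 places. Lbh was -0.6223 within the second BeadChip, -0.1668 with the sets as a block and -0.2913 within the middle places. Dynlrb2 was -0.9055 by neqc, -0.1501 after division by the 95th percentile, -0.3761 within the second BeadChip, -0.1859 with the sets and -0.2722 within the middle places. Syde1 was -0.8373 by neqc and 0.0276 after division by the 95th percentile, a scaling under which the median of all tested probes was 0.3813. Scamp4 was -0.252 with the sets and -0.2759 within the middle places. Without any one pool, the values ran from -1.047 to -0.5005 (Nell2), -1.211 to -0.8534 (Lbh), -0.5442 to -0.4361 (Dynlrb2), -0.4542 to -0.2653 (Syde1) and -0.4483 to -0.3464 (Scamp4). The cause was not tested.

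Member probes past the threshold in HIP against PFC numbered 2, and 1 by neqc, after division by the 95th percentile, without a detection filter and with the BeadChip as a random block. In HIP against NAc they numbered 3, and 1 under the last 3 of these settings. In NAc against PFC they numbered 5, 3 after division by the 95th percentile and 4 without a detection filter and with the BeadChip as a random block. Without any one pool, these counts ran from 1 to 2, from 0 to 4 and from 3 to 7. The 0 calls of SAHA and of CI-994 in NAc became 1 each with the sets of places as a block, and the counts of the other drug comparisons and of the NAc minus PFC effects remained 0 in every setting run.

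Deviations of same-numbered pools correlated above 0.1 in 7 of 18 pairs in PFC, 14 of 18 in NAc and 11 of 18 in HIP, so that the pool numbers were not shown to pair the samples over all treatments. With the pool number as a replicate block, the SAHA difference in HIP was -0.7416 for Nell2, -0.9777 for Lbh, -0.4766 for Dynlrb2, -0.3657 for Syde1 and -0.4118 for Scamp4, as without it, and 0 member probes passed in the tested drug comparisons. Without the replicate block in the region fits, the counts were 2, 3 and 5.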
